A study of Mus musculus with 20 samples.

Results

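The enzymes that trim, branch, extend and cap asparagine-linked glycans were examined in malignant mesothelioma (MM) organoids (3D) and in 2D culture (2D) of the same MM lines. Members were taken by gene name, in a selection made with earlier results of these data known, as the genes of the mannosidase families Man1 and Man2a, the N-acetylglucosaminyltransferase families Mgat1 to Mgat5, and the families B4galt, B3gnt, St3gal, St6gal and Fut. This gave 48 of the 21884 protein-coding genes in the table, of which 6 belong to trimming, 11 to branching, 15 to the addition of galactose and its repeats, 8 to sialic acid and 8 to fucose.

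N-glycans are built in advance on a lipid, moved as 1 block onto asparagines of new proteins in the endoplasmic reticulum, and then rebuilt in the Golgi. Mannosidases first cut mannoses away, Mgat enzymes start the branches, B4galt and B3gnt enzymes lengthen them with galactose and N-acetylglucosamine (repeats of this pair are poly-LacNAc), and sialic acid or fucose caps the ends. These caps and branches set how lectins, receptors and transporters at the cell surface are held and recognised, and several members here also act on O-glycans or glycolipids.

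Each of 7 MM lines, raised in mice labelled C57/BL6, gave 1 organoid library and 1 2D library, 14 in all. The mice carried p53+/- and received crocidolite (lines m5, m12, m28, m54, m60), were wild type and received crocidolite (line m67), or carried p53+/- and received carbon nanotube (line m107). Per the study's methods, fibres were injected into the abdomen of male mice aged 6 to 8 weeks, organoids grew on Matrigel in a medium with EGF, R-spondin1, Noggin and Y-27632, and 2D cells grew in medium with serum, so that matrix and medium changed together and cannot be told apart here. The sample labels disagree with this account, since they give the same medium with serum for the organoids as for the 2D cells, and which medium the sequenced organoids had is not settled here. The 6 samples of normal mesothelial cells were not analysed here.

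Libraries labelled m5 and m12 were the deepest, with 37301801 reads (3D m5) to 53911770 reads (3D m12). The others held 11134018 reads (2D m107) to 20770483 reads (3D m60). The library labelled 3D m12 stood apart from the other 13. Its 12 gut or duct epithelial markers summed to 5314 CPM (reads per 1000000 of the library) against 4.08 to 1178 CPM elsewhere, and its 9 fibroblast and smooth muscle markers to 1.41 CPM against 2665 to 16466 CPM. Its 10 mesothelial markers, a list that includes keratin genes, summed to 7916 CPM, within the 497 to 12879 CPM of the others. Of these markers Wt1 was at 0.0371 CPM there against 53.6 to 957 CPM elsewhere, whereas Msln, the mesothelin gene, was at 647 CPM. The library labelled 3D m67 held 2506 CPM of 12 macrophage and leukocyte markers, against 5.40 to 204 CPM in the others. Reads of 4 Y-linked genes were 0 in 3D m5 and 12572 in 2D m5, but 10773 in 3D m12 and 0 in 2D m12. They were also 0 in 3D m28 and 10 in 2D m28, so a lack of these reads alone does not decide a mismatch. Deviations from the culture means, correlated across genes between the cultures of a line, gave r = 0.0044 in m5 and -0.11 in m12. The other lines had r of 0.317 to 0.703. On these values together the cultures labelled m5 and m12 did not match each other, and results are also given without these lines. In bulk RNA, fewer cells of a type and less RNA per cell cannot be told apart.

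The first question was which members differed between 3D and 2D once libraries were paired by their line label. The pairs labelled m5 and m12 did not match, and the counts of lines below still include them. Without m5 and m12, only Man2a2 and St6gal1 of the risen members named next stayed past the threshold. Of the 48 members, 33 reached at least 1 CPM in at least 7 libraries and were tested. Man2a2, Mgat3, B4galt3, B4galt6 and St6gal1, from 4 of the 5 steps, rose in 3D at a Benjamini-Hochberg adjusted p under 0.05 in limma, and 0 members fell. These 5 were 15.2% of the tested members, beside 3.28% of all 11677 genes tested, of which 2.1% were higher and 1.18% lower in 3D. Without adjustment, 7 members (21.2%) had a p under 0.05 and a higher level in 3D, and 1 (3.03%) a lower level, near the 16.5% higher and 8.69% lower among all genes tested. The median log2 fold change, 3D minus 2D, was 0.18 over the tested members and 0.06 over all genes tested, with 21 positive and 12 negative values among members. The count depended on the test: DESeq2 on the recovered reads called 7 members higher and 0 lower, beside 8.67% of all genes tested higher and 7.48% lower, whereas edgeR called 0 members in either direction and 0.942% of all genes, with adjusted p of 0.0519 to 0.0753 for the same 5 genes.

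**Figure D1:**
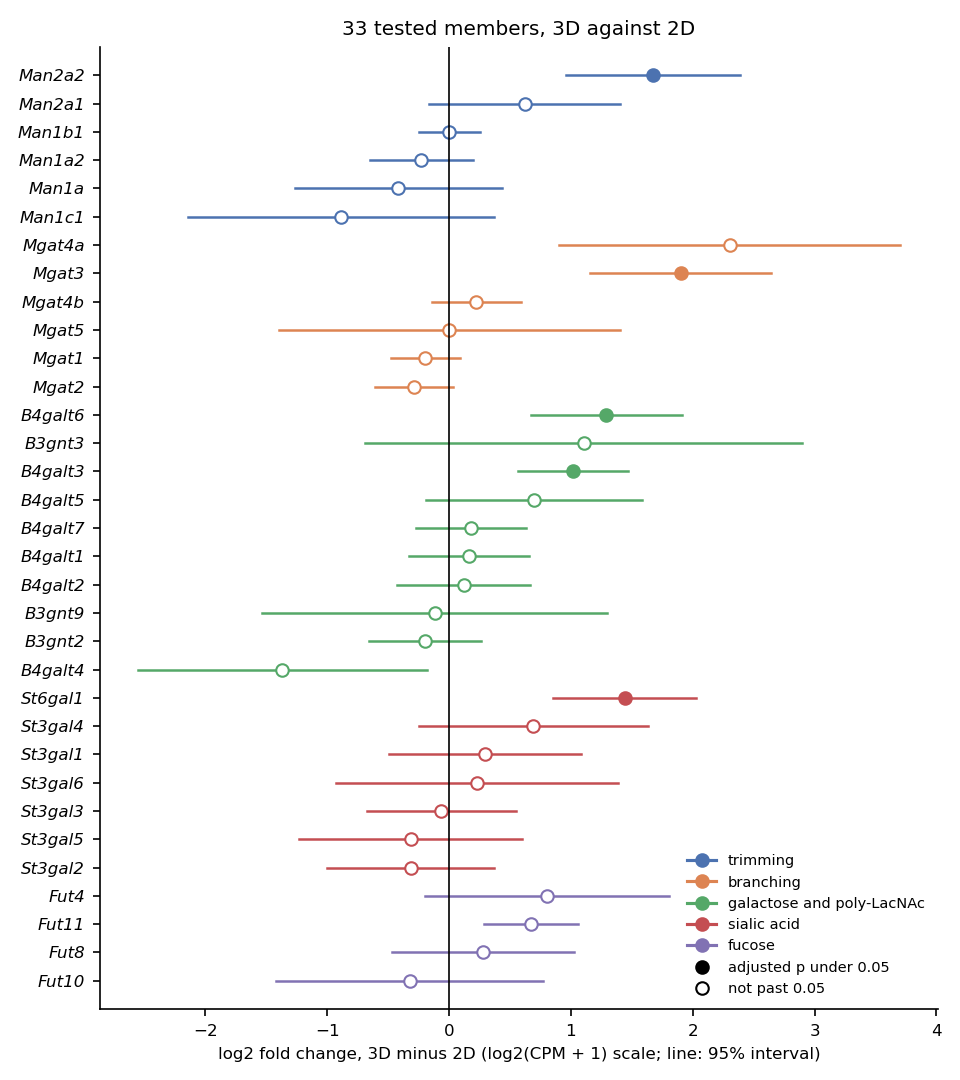
Log2 fold change, 3D minus 2D, on the log2(CPM + 1) scale for the 33 tested members, grouped by step, with 95% confidence intervals from limma. Filled points (Man2a2, Mgat3, B4galt3, B4galt6 and St6gal1) had an adjusted p under 0.05 and all lie right of 0.

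In the trimming step 1 of 6 tested members rose. Man2a2 (chr7:79998842-80021242, GRCm39, minus strand), one of the Golgi mannosidases that remove the last mannoses before a complex branch can form, ranged over 71.4, 142 and 323 CPM (lowest, median and highest) in 3D, against 24.7, 34.6 and 81.8 CPM in 2D. Its level was higher in 3D for 6 of 7 lines. The exception was the unmatched pair labelled m12, with 71.4 CPM in 3D and 81.8 CPM in 2D. The groups overlapped only through 3D m12. The fitted log2 fold change was 1.67 (SE 0.31, 95% interval 0.96 to 2.39, limma adjusted p = 0.0345), a 3.19-fold difference. Without m5 and m12 it was 1.88 (adjusted p = 0.0106).

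Man2a1 (chr17:64907705-65062105), the sister enzyme with the same activity, was the most abundant trimming gene per kb of exon, at 50.7 ± 20.9 CPM per kb in 3D and 32.7 ± 15.9 CPM per kb in 2D (SD, n = 7 each). It stood at 161, 399 and 593 CPM in 3D and 145, 203 and 485 CPM in 2D (lowest, median and highest), with 6 of 7 lines higher in 3D. Its log2 fold change of 0.62 (SE 0.34) had an adjusted p of 0.290. The exception was again the unmatched pair labelled m12, at 161 CPM in 3D and 485 CPM in 2D. Without m12 the log2 fold change was 0.99 (limma adjusted p = 0.0229).

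None of the 4 upstream mannosidases passed the test. Man1b1, which acts on the first mannose in the endoplasmic reticulum and in quality control, stood at 55.3, 102 and 131 CPM in 3D and at 60.7, 109 and 120 CPM in 2D, with a 95% interval of the log2 difference from -0.25 to 0.25. The Golgi mannosidases Man1a, Man1a2 and Man1c1 had log2 differences of -0.41, -0.23 and -0.89, with adjusted p of 0.513, 0.467 and 0.345, and each was lower in 3D in 5 of 7 lines. Lines disagreed for Man1a, which was at 59.1 CPM in 3D m107 against 105 CPM in 2D m107, but 127 CPM in 3D m67 against 36.8 CPM in 2D m67.

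In branching, 1 of the 6 tested members rose. Mgat3 (chr15:80049871-80099720, plus strand) adds the bisecting N-acetylglucosamine, a residue on the core mannose that hinders further branching. It was 36.7, 150 and 281 CPM in 3D (lowest, median and highest), against 4.58, 39.1 and 191 CPM in 2D. All 7 lines had more Mgat3 in 3D, yet the groups overlapped, with m107 at 235 CPM in 3D and 191 CPM in 2D, and m67 at 36.7 CPM in 3D and 4.58 CPM in 2D. The log2 fold change was 1.90 (SE 0.33, 95% interval 1.16 to 2.64, limma adjusted p = 0.0301), or 3.74-fold. Without m5 and m12 the log2 fold change was 1.65 and the adjusted p 0.0635.

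Mgat4a, which opens an additional branch on 1 arm of the glycan, had the largest fitted difference of any tested member but missed the threshold (log2 fold change 2.30, SE 0.61, adjusted p = 0.0708). It is described because of this value, outside the rule for named genes. It was at 3.46, 13.5 and 112 CPM in 3D and at 0.489, 2.79 and 8.87 CPM in 2D, with all 7 lines higher in 3D. Its highest value came from 3D m12, and without that line the log2 fold change was 1.65 with an adjusted p of 0.0257.

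The other abundant branching enzymes did not pass the test. Mgat2, which opens the complex-type branch on the second arm, was the most abundant per kb of exon in this step, at 29.1 ± 8.15 CPM per kb in 3D and 34.7 ± 4.69 in 2D (SD, n = 7 each), and stood at 45.7, 76.6 and 116 CPM in 3D and 69.9, 92.2 and 105 CPM in 2D. Mgat4b, which does the same work as Mgat4a, came next at 38.3, 67.05 and 133 CPM in 3D and 37.0, 57.1 and 71.3 CPM in 2D. Mgat1, without which no complex glycan forms, spanned 54.3 to 114 CPM in 3D and 69.1 to 100.6 CPM in 2D. Their log2 differences were -0.29 for Mgat2, 0.22 for Mgat4b and -0.19 for Mgat1, with adjusted p of 0.242, 0.408 and 0.355.

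Mgat5, which makes the branch that carries long poly-LacNAc chains, was chosen for description after its values were seen. In 3D m5 it was at 0.0268 CPM, 1 read, against 15.9 CPM or 803 reads in 2D m5, a ratio of 2D to 3D of 593 with a 95% counting interval of 106 to 23458. The cultures labelled m5 did not match each other, so this ratio cannot be read as a change within a line. In the other lines Mgat5 ran from 1.69 to 101.5 CPM in 3D and from 2.46 to 35.7 CPM in 2D, and m28 was low in both cultures. Its fitted difference lay between -1.40 and 1.40 on the log2 scale (95% interval). Mgat5b, the brain-type relative of Mgat5, was detected mainly in m67, at 9.97 CPM in 3D and 0.579 CPM in 2D, and was at most 0.111 CPM in the other lines. Mgat4d and Mgat4f had 0 reads in all 14 libraries, which allows up to 0.269 CPM in the shallowest library, and Mgat4c and Mgat4e stayed at or below 0.0927 CPM.

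**Figure D2:**
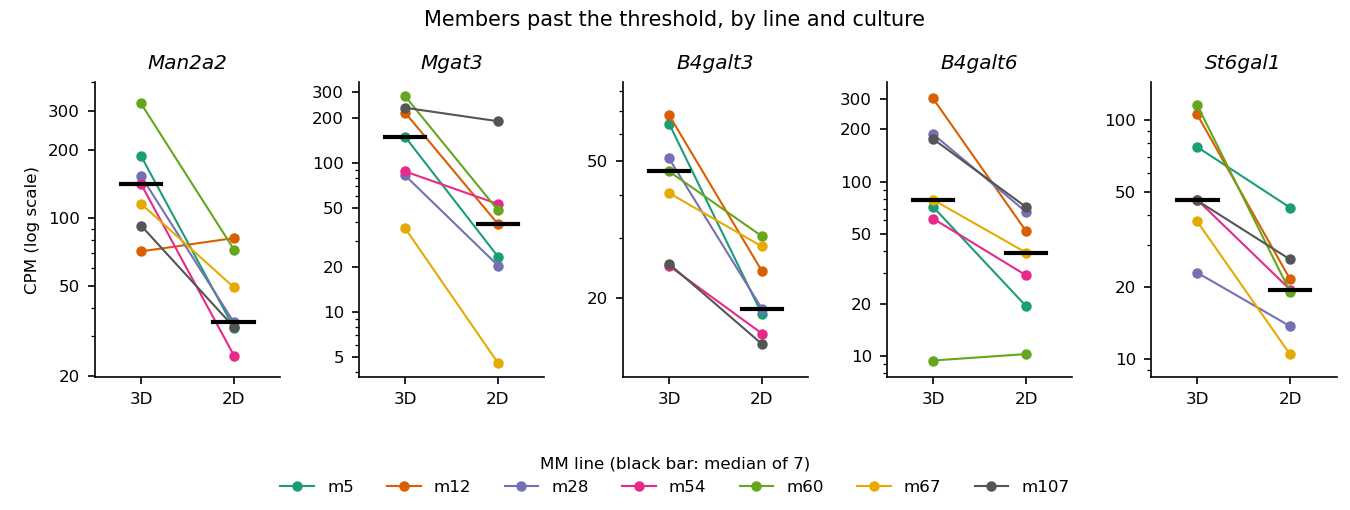
CPM on a log axis in 3D (left of each panel) and 2D (right) for the 5 members with an adjusted p under 0.05, with 1 coloured point and connecting line per MM line and black bars for the median of 7. Nearly every connecting line falls towards 2D; the exceptions are m12 for Man2a2 (71.4 CPM in 3D, 81.8 CPM in 2D) and m60 for B4galt6 (9.44 CPM in 3D, 10.3 CPM in 2D).

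For the addition of galactose and poly-LacNAc, 2 of 10 tested members rose. B4galt3 (chr1:171097872-171104480, plus strand), a galactosyltransferase that works on N-glycan branches, stood at 24.9, 46.8 and 68.3 CPM in 3D against 14.7, 18.7 and 30.3 CPM in 2D (lowest, median and highest). Each of the 7 lines was higher in 3D, and the groups overlapped through m54 and m107, whose 3D values of 24.9 and 25.2 CPM lay below the 2D values of m60 and m67. The log2 fold change was 1.02 (SE 0.20, 95% interval 0.57 to 1.47, limma adjusted p = 0.0365), or 2.03-fold. Without m5 and m12 it was 0.78 with an adjusted p of 0.0749.

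The exons of B4galt3 overlap those of Ppox, a heme synthesis gene on the opposite strand, over 3277 bases or 57.2% of B4galt3's exon bases. Ppox stood at 32.3 to 65.6 CPM in 3D and 8.79 to 24.0 CPM in 2D, higher in 3D in 7 of 7 lines, with a log2 fold change of 1.22 (adjusted p = 0.0293). The library kit keeps the strand, but whether counting used it is not given in the sources used here, so reads of B4galt3 and Ppox may not be fully told apart. Among the other risen members, Man2a2 shares 769 exon bases with Hddc3, at 0.0268 to 4.71 CPM in 3D and 0.485 to 2.34 CPM in 2D, and Mgat3, B4galt6 and St6gal1 share exon bases with 0 other genes of the table.

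RefSeq entries of the sequence before a gene's start were at hand for 36 of the 48 members, with 49 starts in all. The 250 bases before the start are shown for the risen members B4galt3 and St6gal1, on build GRCm38.p6, the risen members that had an entry. Capitals mark a cyclic AMP response element (CRE, TGACGTCA, its own reverse complement), a GC box (GGGCGG) or a Golgi stress element (ACGTGGC), searched on both strands. The matches do not overlap each other in the windows shown.
B4galt3, chr1:171270078-171270327, plus strand: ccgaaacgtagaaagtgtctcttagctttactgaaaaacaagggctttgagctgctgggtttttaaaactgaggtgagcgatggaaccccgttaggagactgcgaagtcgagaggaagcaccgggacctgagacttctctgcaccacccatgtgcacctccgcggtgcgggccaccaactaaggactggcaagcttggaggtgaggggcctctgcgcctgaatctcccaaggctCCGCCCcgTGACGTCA
St6gal1, chr16:23224490-23224739, plus strand: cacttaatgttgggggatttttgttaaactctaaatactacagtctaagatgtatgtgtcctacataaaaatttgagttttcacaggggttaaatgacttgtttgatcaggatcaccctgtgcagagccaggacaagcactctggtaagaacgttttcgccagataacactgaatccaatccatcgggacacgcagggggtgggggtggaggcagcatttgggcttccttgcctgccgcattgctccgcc
The B4galt3 window ends in a CRE directly before the start, with a GC box 2 bases upstream of it. It was the only 1 of 49 member windows (2.04%) with a CRE, beside 1.55% of all 32851 windows of this length. The St6gal1 window held none of the 3 motifs, as did the windows of its 2 other starts. GC boxes lay in 30 of 49 member windows (61.2%) and in 32.7% of all windows, and the Golgi stress element in 0 of 49 and in 2.02%. A match of letters is a description and shows no bound factor.

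B4galt6 (chr18:20817647-20879504, minus strand), which with B4galt5 makes lactosylceramide, the first step of most glycolipids, stood at 9.44, 78.9 and 301 CPM in 3D against 10.3, 39.3 and 71.7 CPM in 2D. In 6 of 7 lines it was higher in 3D, and line m60 was the lowest of the lines in both cultures, at 9.44 CPM in 3D and 10.3 CPM in 2D. The log2 fold change was 1.29 (SE 0.27, 95% interval 0.67 to 1.91, limma adjusted p = 0.0445), or 2.44-fold. Of the 5 risen members it was nearest the threshold, with an adjusted p of 0.0515 after TMM scaling and of 0.0832 without m5 and m12.

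B4galt5, the more abundant of this pair per kb of exon, was at 29.6, 123 and 379 CPM in 3D and 33.1, 62.9 and 116 CPM in 2D, and its log2 fold change of 0.70 (SE 0.39) had an adjusted p of 0.293. B3gnt9, a B3gnt family gene, was second per kb in this step and stood at 0.464, 73.5 and 115 CPM in 3D and 11.2, 31.6 and 178 CPM in 2D, with m107 highest in both cultures. B4galt1, the main galactosyltransferase of N-glycans, spanned 102.5 to 271 CPM in 3D and 75.3 to 325 CPM in 2D. B4galt2 and B4galt7 (B4galt7 builds the proteoglycan linker) also showed no difference past the threshold. B4galt2 shares 1420 exon bases with Ccdc24 on the same strand, where reads of the pair cannot be told apart, and it enters the B4galt3 share given below.

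B4galt4, a galactosyltransferase of the same family, had the most negative fitted difference of the tested members but did not pass the test. It was at 0, 19.97 and 42.01 CPM in 3D and at 16.7, 34.9 and 76.3 CPM in 2D, lower in 3D in 6 of 7 lines, and was the only member lower at an unadjusted p under 0.05 (log2 fold change -1.37, SE 0.52, adjusted p = 0.151). This gene was chosen for description after its values were seen. The 0 came from 3D m12, where 2D m12 had 1102 reads, so that B4galt4 was at least 484-fold lower in that organoid library than in 2D m12 at a floor of 3 reads. The cultures labelled m12 did not match each other, so this bound cannot be read as a change within a line. Without m12 the log2 fold change was -0.80 (adjusted p = 0.0679).

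The B3gnt genes other than B3gnt9 were mostly low. B3gnt2, the main poly-LacNAc synthase, was at 18.6 CPM in 3D and 24.7 CPM in 2D in line m28, and at 1.97 to 4.99 CPM in the other 12 libraries, and it shares 2452 exon bases with Commd1b on the same strand, where reads of the pair cannot be told apart. B3gnt3, which extends mucin-type chains, was at 204 CPM in 3D m12 and at most 20.7 CPM elsewhere, with m60 (17.5 CPM in 3D, 17.7 CPM in 2D) and m67 (20.7 CPM in 3D, 7.67 CPM in 2D) next. B3gnt5, which starts a glycolipid series, was at 6.10 CPM in 2D m5 and had 0 reads in 3D m5. B3gnt4, B3gnt6, B3gnt7 and B3gnt8 reached at most 1.57, 0.193, 5.84 and 7.67 CPM in any library.

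In the sialic acid step 1 of 7 tested members rose. St6gal1 (chr16:23043460-23179103, plus strand), the enzyme that caps N-glycan galactoses with sialic acid, stood at 23.0, 46.5 and 116 CPM in 3D against 10.5, 19.5 and 43.1 CPM in 2D. All 7 lines were higher in 3D, and the groups overlapped, with 2D m5 (43.1 CPM) above 3D m28 (23.0 CPM) and 3D m67 (37.8 CPM), and 2D m107 (26.1 CPM) above 3D m28. The log2 fold change was 1.44 (SE 0.26, 95% interval 0.85 to 2.03, limma adjusted p = 0.0331), or 2.72-fold. Without m5 and m12 it was 1.40 (adjusted p = 0.0485). Its relative St6gal2 had 0 reads in all 14 libraries.

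The St3gal genes, which attach sialic acid in another linkage, had 0 of 6 members past the test. St3gal1, which caps O-glycans, was the most abundant per kb of exon in this step, at 55.9, 82.7 and 210 CPM in 3D and 19.8, 88.2 and 298 CPM in 2D. St3gal2, which caps O-glycans and gangliosides, stood at 27.2, 152 and 225 CPM in 3D and 95.6, 125 and 326 CPM in 2D. Neither difference passed the test (log2 fold changes 0.30 and -0.31, adjusted p of 0.618 and 0.537), and 3 and 4 of 7 lines were higher in 3D for St3gal1 and St3gal2. Of the N-glycan enzymes St3gal3, St3gal4 and St3gal6, St3gal4 was at 294 CPM in 3D m12 and at 18.1 to 52.0 CPM in the other 13 libraries, and St3gal6 ran from 5.08 to 92.7 CPM in 3D and from 2.94 to 87.7 CPM in 2D. St3gal5, which makes the ganglioside GM3, was at 8.01 CPM in 3D m12 and otherwise at 37.0 to 75.1 CPM.

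In the fucose step 0 of 4 tested members passed the threshold in limma, with 1 at an unadjusted p under 0.05 and counts of 1 for DESeq2 and 0 for edgeR. That member, Fut11, was the most abundant fucose gene per kb of exon, at 20.5, 35.0 and 58.7 CPM in 3D and 13.2, 20.2 and 37.5 CPM in 2D. All 7 lines were higher in 3D, with a log2 fold change of 0.67 (SE 0.17, 95% interval 0.28 to 1.06, limma adjusted p = 0.0652), and m107 moved least, with 38.1 CPM in 3D and 37.5 CPM in 2D. Fut10 was second per kb, at 3.25, 36.1 and 55.5 CPM in 3D and 26.5, 32.4 and 49.2 CPM in 2D. Fut8, the only enzyme that fucosylates the N-glycan core, spanned 6.58 to 52.3 CPM in 3D and 10.7 to 29.5 CPM in 2D (log2 fold change 0.28, adjusted p = 0.619).

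The fucosyltransferases that make blood group and Lewis structures were at or below 2.84 CPM except in 1 library. In 3D m12, Fut2, which makes the H antigen of secretions, was at 82.0 CPM, Fut9 at 20.2 CPM, Fut4 at 10.98 CPM and Fut1 at 10.8 CPM, whereas the other 13 libraries reached at most 1.99 CPM for Fut2, 0.586 CPM for Fut9, 2.84 CPM for Fut4 and 1.24 CPM for Fut1. Fut2 had 0 reads in 2D m12, so it was at least 1119-fold higher in 3D m12 at a floor of 3 reads. As the cultures labelled m12 did not match each other, this bound too cannot be read as a change within a line. Fut7, the leukocyte enzyme of selectin ligands, stayed at or below 1.11 CPM in all libraries.

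**Figure D3:**
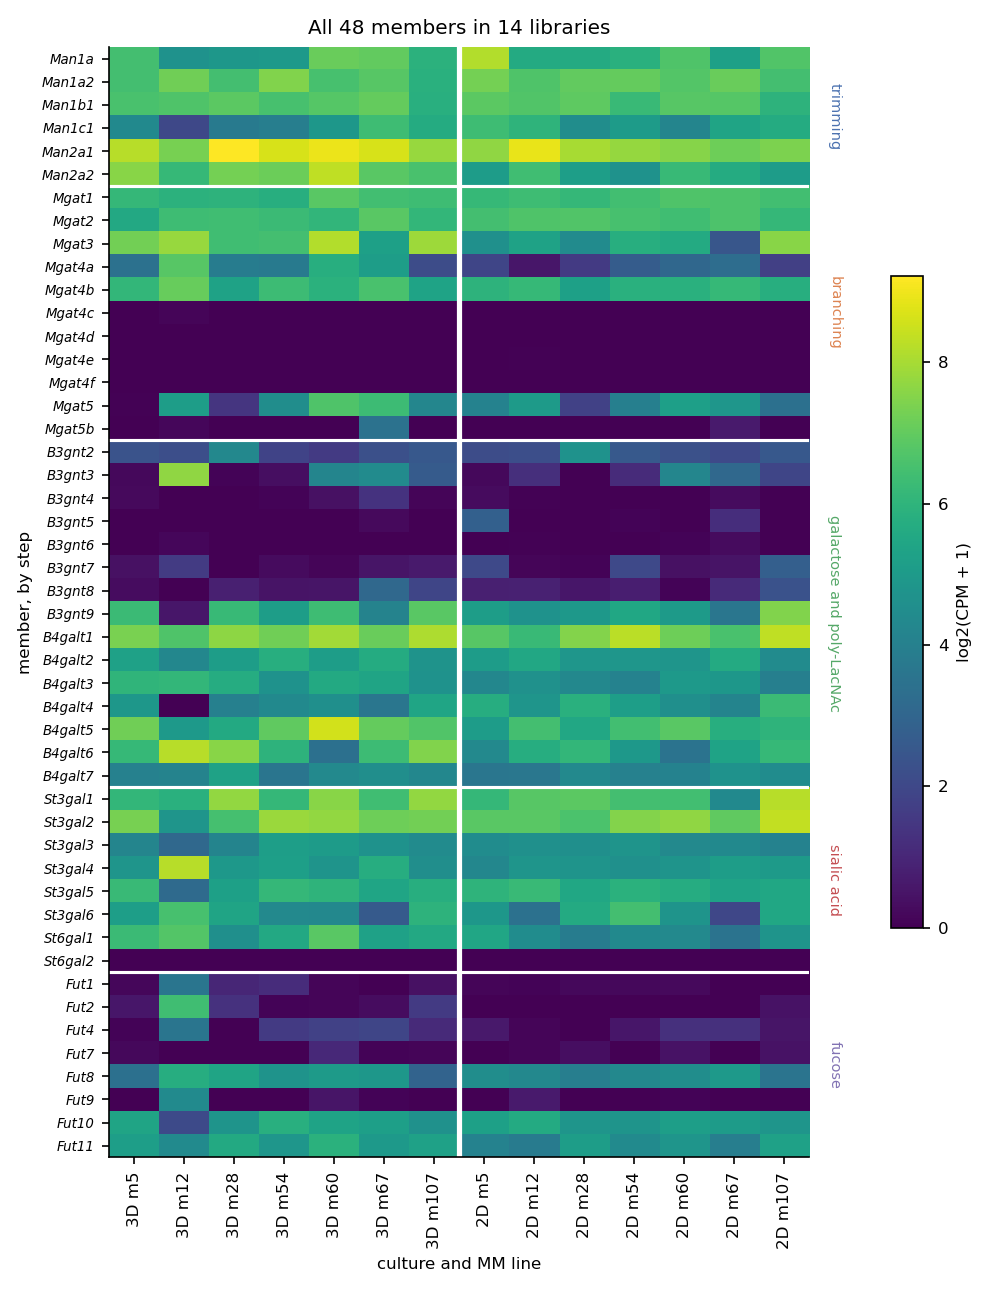
Log2(CPM + 1) of all 48 members (rows, by step) in the 7 3D libraries (left block) and the 7 2D libraries (right block). Bright rows in both blocks are the general enzymes such as Man2a1; dark rows such as Mgat4d and St6gal2 had 0 reads, and 3D m12 is the column with bright Fut2 and St3gal4 and dark B4galt4.

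The share of each risen member among related genes of its step was calculated from CPM per kb of exon, a comparison chosen after the values were seen and given without a test. Only members already called higher in 3D were taken, so a higher share in 3D partly follows from that choice. The genes compared do not all do the same work. Mgat3 hinders the branching that Mgat4a, Mgat4b and Mgat5 carry out, and St6gal1 makes a different linkage from the St3gal genes. Man2a2 made up 22.8% ± 6.18 of the summed level of Man2a1 and Man2a2 in 3D and 12.7% ± 5.35 in 2D (SD, n = 7 each), higher in 3D in 6 of 7 lines. Mgat3 made up 46.6% ± 19.2 of Mgat3, Mgat4a, Mgat4b and Mgat5 in 3D and 26.4% ± 19.0 in 2D, higher in 7 of 7 lines. B4galt3 took 25.9% ± 13.6 of B4galt1 to B4galt4 in 3D and 12.8% ± 6.50 in 2D, also in 7 of 7 lines. The shares of St6gal1 among the N-glycan sialyltransferases were 29.7% ± 13.4 in 3D and 17.4% ± 8.11 in 2D, higher in 6 of 7 lines. For B4galt6 of B4galt5 and B4galt6 the shares were 43.1% ± 30.5 in 3D and 31.1% ± 15.3 in 2D, with 4 of 7 lines higher, so this share did not move in 1 direction.

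**Figure D4:**
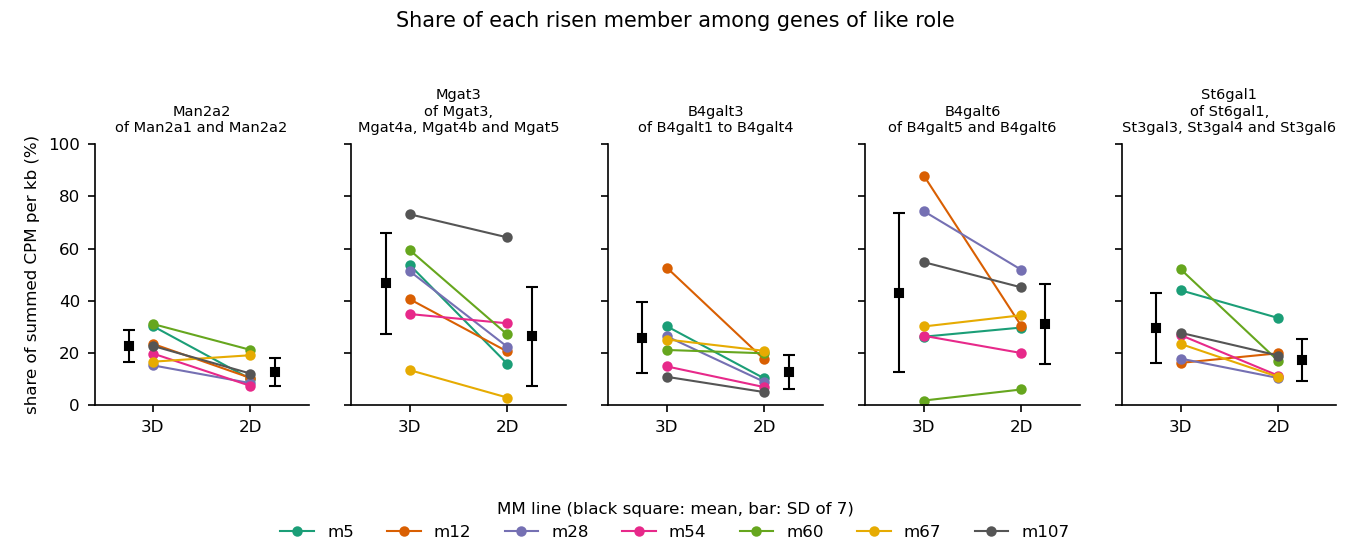
Share of each risen member in the summed CPM per kb of exon of related genes of its step, in 3D (left of each panel) and 2D (right), with 1 coloured point per MM line and black squares and bars for the mean and SD of 7. Mgat3 and B4galt3 shares are higher in 3D in 7 of 7 lines, and the B4galt6 share ranges from 1.77% in 3D m60 to 88.0% in 3D m12.

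Summed over each step per kb of exon, branching was 94.0 ± 23.5 in 3D and 75.4 ± 7.75 CPM per kb in 2D (SD, n = 7 each), higher in 3D in 7 of 7 lines. This sum includes Mgat3, which hinders further branching, at 25.8 ± 15.1 CPM per kb in 3D and 8.9996 ± 10.4 in 2D. The means of Mgat4a, Mgat4b, Mgat5 and Mgat5b were also higher in 3D, and those of Mgat1 and Mgat2 were lower. The higher sum can therefore not be read as more branching. Sialic acid enzymes summed to 71.9 ± 15.5 CPM per kb in 3D and 58.4 ± 21.4 in 2D, and fucose enzymes to 17.8 ± 7.33 in 3D and 10.5 ± 1.35 in 2D, each higher in 6 of 7 lines. Trimming summed to 102 ± 30.7 CPM per kb in 3D and 79.3 ± 20.6 in 2D, and galactose and poly-LacNAc to 120 ± 28.9 in 3D and 82.2 ± 34.2 in 2D, each higher in 5 of 7 lines. These sums are dominated by a few genes and were not tested.

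The second question was whether lines differed from each other by more than the cultures of 1 line did. In limma's F-test of the line terms, 0 of 33 tested members passed the adjusted threshold, beside 1.33% of all genes tested, and 10 (30.3%) had an unadjusted p under 0.05, near the 26.1% of all genes tested. No other tool was run for this test. The smallest adjusted p values were 0.0538 for B4galt6, 0.0597 for B3gnt2 and 0.0842 for Mgat3. The result depended on m12, whose 2 libraries differed widely. Without m12, B3gnt2, B3gnt3, B3gnt9, B4galt6, Mgat3 and St3gal6 passed, with adjusted p of 0.00872 for B3gnt3 to 0.0469 for B3gnt9. These 6 were 18.2% of the tested members, beside 10.4% of all genes tested in that fit. Without m5 and m12, 9 members (27.3%) passed, beside 17.2% of all genes tested.

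Several lines stood low or high in both cultures. B4galt6 was lowest in m60 (9.44 CPM in 3D, 10.3 CPM in 2D) and, outside 3D m12, highest in m28 (188 CPM in 3D, 67.2 CPM in 2D) and m107 (176 CPM in 3D, 71.7 CPM in 2D). Mgat3 was lowest in m67 in both cultures. St3gal6 was also lowest in m67, at 5.08 CPM in 3D and 2.94 CPM in 2D. B3gnt9 was highest in m107, at 115 CPM in 3D and 178 CPM in 2D, and low in m67, at 16.2 CPM in 3D and 11.2 CPM in 2D. With 1 library per line and culture, a line cannot be told apart from its mouse, and lines m67 and m107 also differ from the rest in genotype or fibre.

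The library labelled 3D m12 stood at an extreme for many members. It lay above the other 13 libraries for 13 of 48 members and below them for 11. Among tested members these were 9 of 33 (27.3%) above and 10 of 33 (30.3%) below, beside 15.6% and 16.2% of all genes tested. Members above included B3gnt3, St3gal4, St3gal6, Fut1, Fut2, Fut4, Fut8 and Fut9, and, of the risen ones, B4galt3 (68.3 CPM) and B4galt6 (301 CPM). Members below included B4galt4, B3gnt9 (0.464 CPM against 11.2 to 178 CPM), St3gal2, St3gal3, St3gal5, Fut10 (3.25 CPM against 24.1 to 55.5 CPM) and Man1c1 (2.99 CPM against 12.5 to 80.0 CPM). The epithelial markers Epcam, Cdh1 and Muc1 stood at 430, 1062 and 849 CPM in the same library, and the part of such cells in these levels was not tested.

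**Figure D5:**
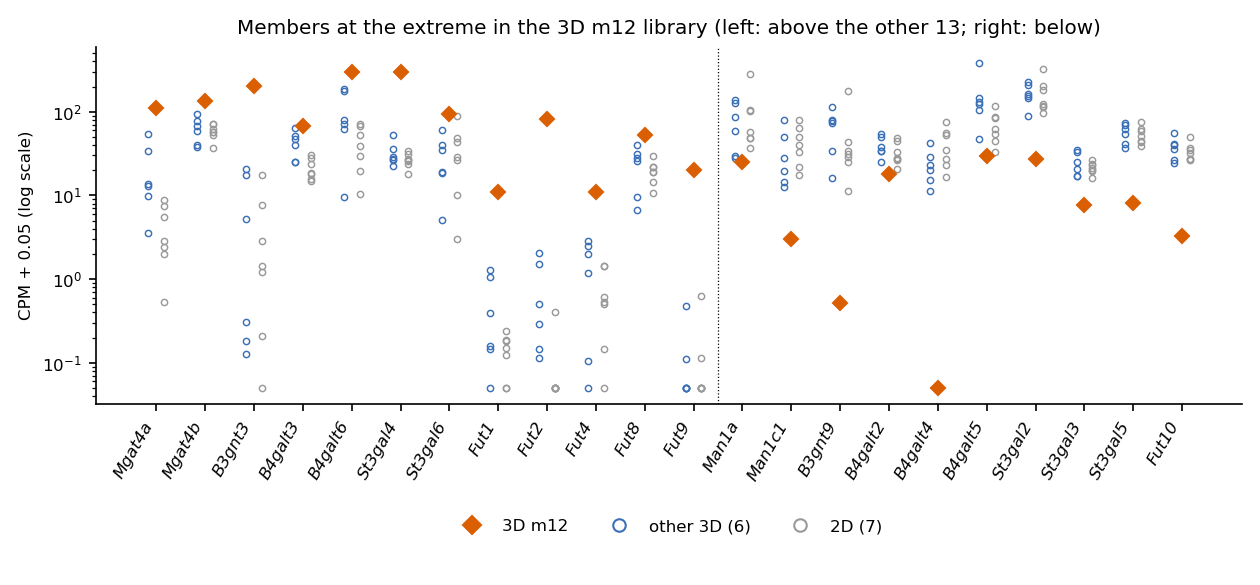
CPM plus 0.05 on a log axis for 22 of the 24 members at an extreme in 3D m12 (orange diamonds), with the other 6 3D libraries in blue and the 7 2D libraries in grey; 2 members under 1 CPM are left out. Fut2 at 82.0 CPM and B3gnt3 at 204 CPM stand above every other library, and B4galt4 has 0 reads.

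Leaving out m12 kept the 5 risen members past the threshold and added Man2a1 and Mgat4a (7 of 33), while the genes called over the whole table numbered 771 (6.6% of those tested, with 4.35% higher in 3D), against 383 with all lines. Leaving out both m5 and m12, a fit that called 1.87% of all genes tested as higher in 3D, left Man2a2 and St6gal1 past it, together with Man2a1 at a log2 fold change of 1.07 (adjusted p = 0.0330). The 5 calls were lost with m5, m28, m54 or m67 left out, when 0 members passed, and 1 passed without m60, while m107 left out gave 5 with Fut11 in place of B4galt6, beside 3.57% of all genes tested higher in 3D. Over all genes, 22 to 77 were called, against 383 with all lines, in the fits without m5, m28, m54, m60 or m67, while the log2 fold changes of the 5 members stayed positive. In the 5 crocidolite lines from p53+/- mice alone, 0 members passed, beside 14 of all 11677 genes tested. These lines include m5 and m12, whose cultures did not match.

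Some markers of another cell type also differed between cultures. Of 9 fibroblast and smooth muscle markers, 2 (Acta2 and Tagln, genes of contractile cells) were lower in 3D in limma. These were 22.2% of the list, beside 1.18% of all genes tested. Of the 9 fitted log2 differences, 6 were negative and 3 positive. EdgeR called 1 of the 9 lower, beside 0.942% of all genes in either direction, and DESeq2 called 3, beside 7.48% lower. The list summed to 1.41 to 7328 CPM in 3D against 6405 to 16466 CPM in 2D. All 9 markers were above 0 in 12 libraries, with Pdgfrb and Thy1 at 0 in 3D m12 and Thy1 at 0 in 2D m5. Mesothelial markers summed to 527 to 8119 CPM in 3D and 497 to 12879 CPM in 2D, with Upk1b at 0 in 3D m12 and no other of the 10 at 0. The part of these cells or states in the members' differences was not tested.

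The rest of the glycan pathway, 8 lists written from general knowledge and covering 130 tested genes, gave 1 gene higher and 1 lower in 3D, with a median log2 fold change of 0.16. At an unadjusted p under 0.05, 32 (24.6%) were higher and 7 (5.38%) lower, beside 16.5% and 8.69% of all genes tested. DESeq2 called 8 higher (6.15%) and 5 lower (3.85%), beside 8.67% and 7.48% of all genes, and edgeR called 0 in either direction. The 1 that rose was Fuca1, the lysosomal fucosidase, at 34.2, 81.1 and 132 CPM in 3D and 19.0, 37.8 and 60.5 CPM in 2D (log2 fold change 0.94, limma adjusted p = 0.0466), higher in 7 of 7 lines. The 1 that fell was Siglecg, a sialic acid lectin, at 0, 3.55 and 7.05 CPM in 3D against 17.3, 44.4 and 67.4 CPM in 2D (log2 fold change -3.49, limma adjusted p = 0.0212). Its groups did not overlap, a pattern seen in 1.00% of all genes tested and in 0 of the 33 tested members. Genes of the dolichol-linked precursor and its transfer (27 tested), glucosidases and the calnexin cycle (17), sugar nucleotide supply (29), mucin-type cores (15), other sialyltransferases and sialidases (3) and Golgi tethering and acidification (19) had 0 calls, with medians of 0.04, 0.14, 0.25, 0.11, 0.80 and 0.11. At an unadjusted p under 0.05 these lists, in the same order, held 3, 6, 5, 3, 2 and 6 genes higher in 3D and 0, 0, 1, 1, 0 and 3 lower. The list of lysosomal glycan breakdown, which holds Fuca1, had 13 tested genes, all with a positive log2 fold change (median 0.49). Of these, 6 were higher and 0 lower at an unadjusted p under 0.05. The lectin list, which holds Siglecg, had 7 tested genes with a median of -0.02, with 1 higher and 2 lower.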

How the data were processed

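RNA was sequenced from 7 MM lines as organoids (3D) and in 2D culture, 14 libraries in all. Per the study's methods and the submitters' notes, the authors used FastQC 0.10.0 for read quality, Trim Galore 0.6.4 for adapter removal, STAR 2.7.9a for alignment to GRCm39 and HTSeq-count 0.12.4 for read counts per protein-coding gene. The authors deposited CPM, each gene's reads scaled to 1000000 per library. The table also holds the authors' p-value, q-value and ranking of their own 3D against 2D comparison, which were not used. All values above 0 (100%) were whole reads within 0.001, so reads were recovered, and edgeR 4.0.16 (quasi-likelihood; 110 of 11677 genes called) and DESeq2 1.42.0 were run on them as alternatives.

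Log2(CPM + 1) values were fitted with limma 3.58.1 (moderated variances with a trend) in R 4.3.3, with line as a block and culture, for genes that reached 1 CPM in 7 or more libraries. All tests were two-sided, with Benjamini-Hochberg adjustment over 11677 genes and a threshold of 0.05. Fold changes on this scale understate changes of low genes. A difference between lines was tested by limma's F-test in the same fit. Lines pair the libraries because each line came from 1 mouse. As a check, deviations from the culture means were correlated across genes, and in 5 of 7 lines the own-line pair had the highest r (0.317 to 0.703), but not in m5 (r = 0.0044) or m12 (r = -0.11). P-values measure the spread between single libraries of 7 lines. The floor for 0 reads, 3 reads, was 0.0556 to 0.269 CPM and covers counting error only.

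Exon lengths (unions of exons) and positions came from GENCODE on GRCm39, the authors' build. Members and gene lists were chosen with earlier results of these data known. Values were given for members past either threshold, the top 2 per step in CPM per kb, and members with at least 5 CPM in 1 library and at least 5 times the next highest; others by range unless marked. Of the listed pathway genes 155 of 157 matched by symbol. The fits were tested on simulated data. In all, 18 alternatives were tried.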

Additional observations from a re-analysis of the deposited data

Results flagged for a closer look

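Within each culture, the highest or lowest library was compared with its nearest neighbour by Dixon's ratio on log2(CPM + 1), for the 72 groups of 7 libraries that reached 5 CPM. In independent groups chance would flag about 1 in 20, and 12 were found. A group could reach 5 CPM through the flagged library alone, as for Fut9 in 3D m12, and 7 flags share that library. The chance rate therefore does not apply to these 12, and their number was not weighed against it. In 3D m12, 7 members stood apart. B4galt4 was at 0 CPM there against 11.3 to 42.01 CPM in the other 6 organoid libraries. St3gal4 was at 294 CPM against 22.7 to 52.0 CPM, and St3gal5 at 8.01 CPM against 37.0 to 74.1 CPM. Among fucose genes Fut1 was at 10.8 CPM, Fut2 at 82.0 CPM, Fut9 at 20.2 CPM and Fut10 at 3.25 CPM, where the other organoid libraries reached at most 1.24, 1.99 and 0.433 CPM for Fut1, Fut2 and Fut9 and at least 24.1 CPM for Fut10.

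The other 5 lay elsewhere. B3gnt2 was at 18.6 CPM in 3D m28 and at 24.7 CPM in 2D m28, so the same line stood apart in both cultures. Mgat5b was at 9.97 CPM in 3D m67, B3gnt5 at 6.10 CPM in 2D m5, and Man1b1 at 55.3 CPM in 3D m107 against 91.1 to 131 CPM in the other organoid libraries. Causes were not tested.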

How the results depend on the processing

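Directions held: each of Man2a2, Mgat3, B4galt3, B4galt6 and St6gal1 was higher in 3D under all 18 alternatives, with log2 fold changes of 1.54 to 1.99, 1.65 to 2.17, 0.78 to 1.18, 0.94 to 1.52 and 1.26 to 1.56, but the calls did not. Members called numbered 5 of 33 at first, 0 without a filter on low values, 1 (Man2a2) without the line block, 0 in the 5 lines from p53+/- mice given crocidolite, 3 without m5 and m12, and 0 in edgeR. Leaving out 1 line gave 0 to 7 members (7 without m12). Over all genes the count was 383 at first, 63 without a filter, 139 without the line block, 14 in the 5 lines, 110 in edgeR and 1886 in DESeq2, and 22 (without m54) to 771 (without m12) with 1 line left out. For line differences the 155 genes became 390 without a filter, 56 with a mean of at least 10 CPM, 0 in the 5 lines, 2004 without m5 and m12, and 9 (without m28) to 1217 (without m12) with 1 line left out. The 0 members became 1 with a pseudocount of 5 (B3gnt2), 1 with TMM scaling (B4galt6), 9 without m5 and m12, and 0 to 6 with 1 line left out. Fits without a line or in 5 lines hold fewer samples; other causes were not tested. The called members were at 4.58 CPM or more in each library, and for members at or near 0 the floor of up to 0.269 CPM limits what can be seen.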

Other observations

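Genes beside the members at or near 0 were read in the order of the annotation. Next to B4galt4 in 3D m12, Arhgap31 on one side and Upk1b on the other also had 0 reads, where 2D m12 had 108 CPM of Arhgap31 and 97.3 CPM of Upk1b. Farther out, Tmem39a was at 47.2 CPM in 3D m12 and 56.5 CPM in 2D m12, and Tex55 had 0 reads in both. Beside Mgat5, with 1 read in 3D m5, Nckap5 was at 1.26 CPM in 3D m5 and 11.9 CPM in 2D m5, whereas Ccnt2, 3 genes away, was at 57.5 CPM in 3D m5 and 36.0 CPM in 2D m5. These neighbours were read after the values of the members were seen, and the cultures labelled m5 and m12 did not match each other.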
